A study of Danio rerio with 12 samples.

Results

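The 7 genes described here are interferon-stimulated genes of the zebrafish: isg15, rsad2, mxa, mxb, mxc, irf7 and irf1b. They were chosen by name from the gene table of a bulk RNA-seq experiment on whole kidney marrow, the main blood-forming tissue of the fish. All 7 were found among 32105 genes, and all 7 were among the 18370 genes abundant enough to be tested.

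The study sequenced poly(A) RNA from the dissected kidneys of 12 individual fish in 4 genotype groups of 3. The groups were wild type fish, fish with the frameshift allele D3612fs of prkdc, fish with the frameshift allele Y91fs of il2rga, and double mutants with both alleles. prkdc encodes the catalytic subunit of a DNA repair kinase needed to assemble antigen receptor genes, and il2rga encodes the shared gamma chain of several cytokine receptors. The labels of these samples give no strain, age, sex, zygosity, infection status or treatment. The kidney is a mixed tissue, and in such bulk samples fewer cells of a type and less RNA per cell cannot be told apart. Each library is 1 animal, so the p-values measure the spread between animals.

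Interferons are secreted proteins that cells release on sensing viral or other foreign nucleic acid. Their receptors act through JAK kinases to activate STAT proteins, which together with IRF9 switch on a broad set of antiviral genes. Several IRF genes are themselves induced by interferon, so that the genes described here include both antiviral effectors and factors that control transcription in the response.

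Libraries held 4756244 to 10311377 counts. il2rga itself was at 1.71 to 6.17 CPM (counts scaled to a common library size, with TMM correction for composition) in the 6 libraries labelled il2rga mutant or double mutant, and at 34.1 to 61.4 CPM in the other 6. Kidney tubule, erythroid and neutrophil markers were detected in every library. Transcripts of liver markers, 15 genes measured, differed strongly between libraries. Their mean log2 CPM was 0.86 to 2.06 in the 6 wild type and prkdc mutant libraries. It was 5.53, 7.10 and 1.96 in il2rga mutants 1, 2 and 3, and 8.14, 6.19 and 4.46 in double mutants 1, 2 and 3. Ovary markers, 9 genes measured, had a mean log2 CPM of 7.27 and 3.87 in double mutants 1 and 2. The next highest library, il2rga mutant 1, was at 2.09. Testis markers, 7 genes measured, were at 4.76 in il2rga mutant 2, and next at 1.80 in double mutant 1. The part of ovary and testis transcripts in the levels given below was not tested. The summed CPM of T cell markers was 36.1 to 80.3 for wild type fish, 11.1 to 18.3 for prkdc mutants, 1.70 to 3.95 in il2rga mutants and 2.00 to 5.57 in double mutants.

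Most of the interferon-stimulated genes differed more between fish of 1 genotype than between genotypes. il2rga mutant 1, wild type 3 and double mutant 2 were the libraries with high levels of most of them, and double mutant 3 was the library with the lowest levels of most. The 3 prkdc mutants lay between these and close together for most of the genes. None of the 7 genes passed the test between any groups compared.

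The antiviral effectors show the pattern most plainly. isg15 encodes a ubiquitin-like protein that is attached to other proteins during antiviral responses. Its CPM were 6.78, 9.01 and 37.6 in wild type fish 1 to 3, and 20.4, 8.73 and 11.4 in prkdc mutants 1 to 3. They were 57.8, 42.5 and 5.74 in il2rga mutants 1 to 3, and 15.7, 49.4 and 5.35 in double mutants 1 to 3. Every group except the prkdc mutants therefore held both low and high animals, and all groups overlapped. rsad2 encodes viperin, an enzyme that makes a modified nucleotide which blocks viral RNA synthesis. Its CPM were 3.05, 4.14 and 18.5 in wild type fish, 4.46, 4.69 and 2.76 in prkdc mutants, 23.1, 7.26 and 0.64 in il2rga mutants, and 3.64, 8.80 and 0.15 in double mutants. The highest and the second highest libraries were il2rga mutant 1 and wild type 3, and the lowest was double mutant 3, where the value rests on 1 count.

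The mx genes encode dynamin-like GTPases, of which mammalian relatives block the replication of several viruses. mxa was at 2.46, 7.19 and 27.23 CPM in wild type fish, 28.6, 10.3 and 12.5 in prkdc mutants, 48.7, 14.0 and 2.34 in il2rga mutants and 13.4, 25.3 and 2.75 in double mutants. It was again high in wild type 3 and il2rga mutant 1, and it is the only one of the 7 for which a prkdc mutant had the second highest value. mxb was at 0.20, 0.61 and 8.18 CPM in wild type fish, 1.37, 1.53 and 0.96 in prkdc mutants, 37.6, 4.81 and 0.21 in il2rga mutants and 1.70, 5.0 and 0.15 in double mutants. The single library of il2rga mutant 1 held most of the mxb signal, and the lowest values, in wild type 1, il2rga mutant 3 and double mutant 3, rest on 2, 1 and 1 counts. mxc departed from the others: it was at 3.05, 3.90 and 8.61 CPM in wild type fish, 1.83, 6.0 and 2.64 in prkdc mutants, 3.36, 7.58 and 32.1 in il2rga mutants and 7.05, 14.9 and 1.22 in double mutants. Its highest value was in il2rga mutant 3, a fish in which mxa had its lowest value of all 12. The mx genes are close relatives, and how the authors' counting shared reads between them is not given in the sources used here, so each level is uncertain to that extent.

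Both control factors had narrower ranges. irf7 encodes a factor that amplifies the transcription of type I interferon genes. It was at 13.7, 18.4 and 33.5 CPM in wild type fish, 28.7, 22.7 and 21.5 in prkdc mutants, 57.4, 24.99 and 31.9 in il2rga mutants and 19.9, 33.6 and 14.8 in double mutants. Its highest library was il2rga mutant 1 and its lowest was wild type 1. irf1b, a zebrafish relative of the interferon-gamma induced factor IRF1, was at 48.3, 61.8 and 88.8 CPM in wild type fish, 45.2, 56.18 and 44.6 in prkdc mutants, 154, 88.6 and 159 in il2rga mutants and 87.1, 124 and 41.5 in double mutants. Among the pairs tested, it was the member that came nearest to separating by genotype. The lowest il2rga mutant, at 88.6 CPM, lay just below the highest wild type fish, at 88.8 CPM. Every il2rga mutant lay above every prkdc mutant, of which the highest was at 56.18 CPM. That pair was not tested, and the share of all genes that separate it was not counted. Ordered by group mean, irf1b ran from 48.7 ± 6.5 CPM (SD, n = 3) in prkdc mutants through 66.3 ± 20.6 in wild type and 84.1 ± 41.2 in double mutants to 133.9 ± 39.3 in il2rga mutants, and neighbours in that order overlapped.

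**Figure D1:**
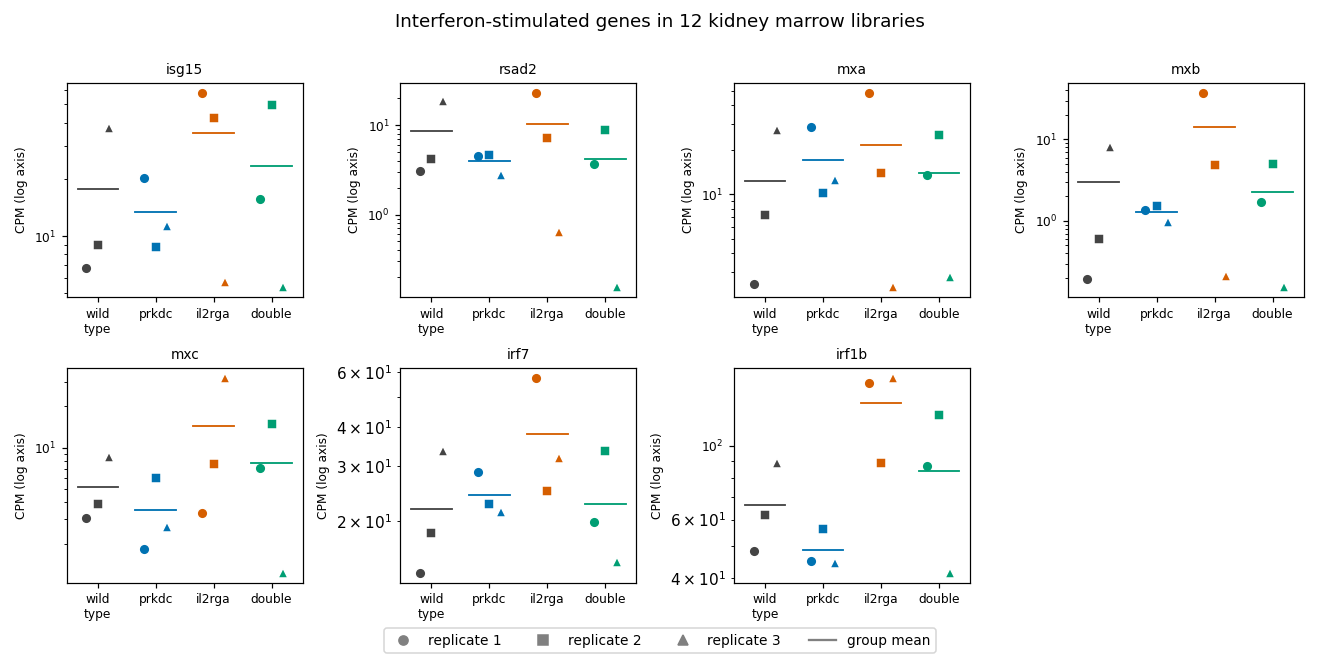
CPM (log axis) of each of the 7 interferon-stimulated genes in the 12 libraries, with 3 animals per genotype, the marker shape giving the replicate number and the line the group mean. The groups overlap in each panel for the pairs tested, and single animals such as il2rga mutant 1 and double mutant 3 lie at the ends.

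The size of this variation was compared with that of all tested genes. The SD of log2 CPM between animals of 1 genotype, pooled over the 4 groups, was 2.17 for mxb, 1.81 for rsad2, 1.62 for mxa, 1.39 for isg15 and 1.30 for mxc. These 5 genes lay between the 93.8th and the 98.4th percentile of all tested genes, whose median was 0.43. irf7 and irf1b were closer to the median gene, with 0.55 and 0.52, at the 64.3rd and the 61.5th percentile. Genes of all levels were ranked together here. By mean log2 CPM, mxb, rsad2 and mxc lay at the 14.0th, 26.2nd and 30.0th percentile, and mxa and isg15 at the 43.8th and 52.4th. The part of low counts in the SD of these genes was not tested. Of the total sum of squares of log2 CPM, differences between the 4 genotypes held from 6.33% for mxa to 59.3% for irf1b, and 44.3% for the median gene. irf1b was the only member above that median.

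**Figure D2:**
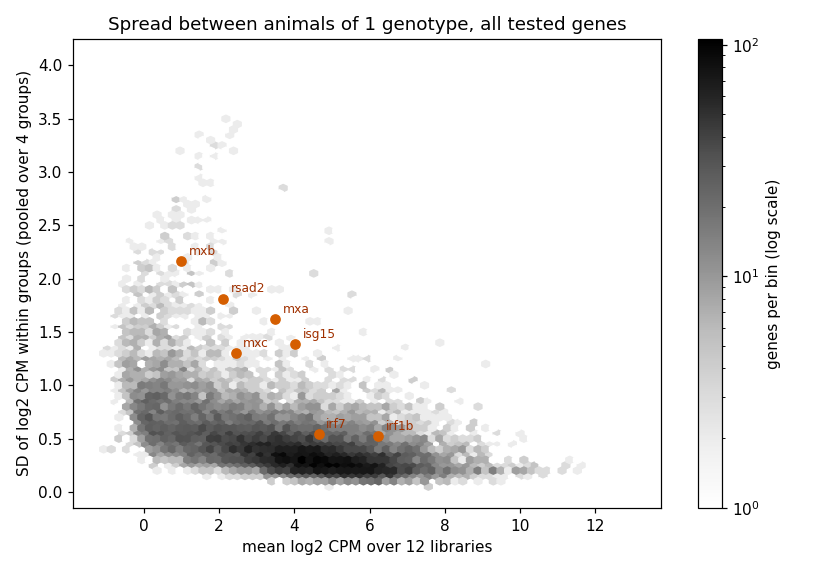
Each tested gene by its mean log2 CPM (x axis) and its SD of log2 CPM between animals of 1 genotype, pooled over 4 groups (y axis), with grey bins on a log scale of gene number. mxb, rsad2, mxa, isg15 and mxc lie above most genes, while irf7 and irf1b lie near the bulk.

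Most of the 7 genes also varied together from fish to fish. Over the 12 libraries, the 10 pairs that leave out mxc and irf1b had Pearson correlations of log2 CPM from 0.63 to 0.93, with a median of 0.84. With the group means removed, so that genotype plays no part, the same 10 pairs had correlations from 0.74 to 0.96 with a median of 0.93. Without the 2 libraries farthest from the median of the first gene of a pair, they ran from 0.55 to 0.94. The closest pair was isg15 with mxb, at 0.93. The 6 pairs with mxc ran from -0.03 to 0.77 with a median of 0.16, and the highest of these was with irf1b. These values are a description over 12 points that share library and depth.

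**Figure D3:**
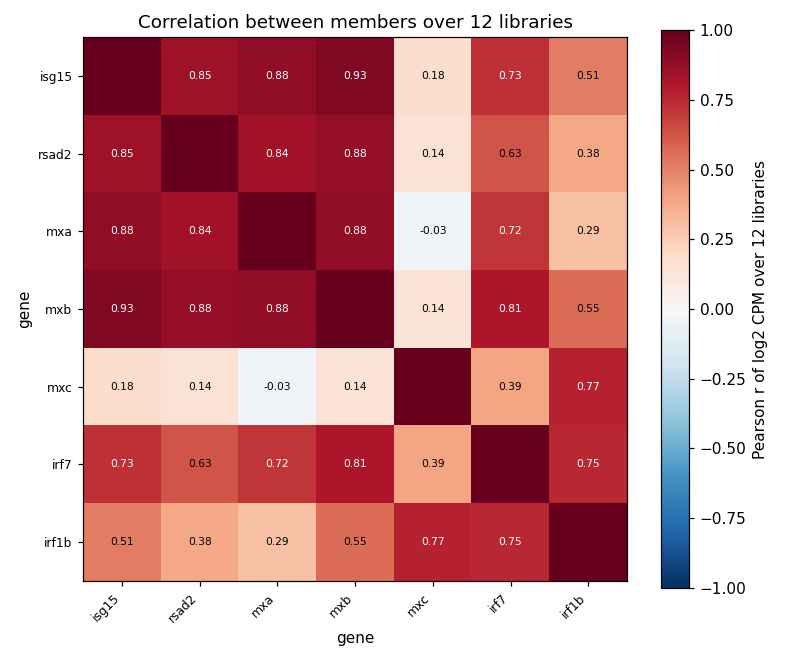
Pearson correlation of log2 CPM between the 7 genes over 12 libraries, with the value printed in each cell. isg15, rsad2, mxa, mxb and irf7 form a block of high values from 0.63 to 0.93, mxc stands outside it, and irf1b is closest to mxc and irf7.

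Averaged over the 7 genes after each was standardized over the libraries, the level was 1.39 SD units in il2rga mutant 1, 0.92 in double mutant 2 and 0.84 in wild type 3. It was -1.41 in double mutant 3, -0.96 in wild type 1 and -0.45 in wild type 2. The 3 prkdc mutants lay between -0.44 and -0.09. il2rga mutant 1 held the highest value of 5 of the 7 genes and il2rga mutant 3 that of the other 2, mxc and irf1b. Double mutant 3 held the lowest value of 5 and was among the 3 lowest for all 7. il2rga mutants 1 and 3 had the fewest and the second fewest counts of the 12. The 4 libraries richest in liver markers had means of the 7 genes of 1.39 (il2rga mutant 1), 0.47 (il2rga mutant 2), 0.92 (double mutant 2) and 0.02 (double mutant 1). The other 2 libraries with the il2rga allele, il2rga mutant 3 and double mutant 3, had -0.12 and -1.41. The part of depth and of liver transcripts in these levels was not tested beyond the alternative fits given with each comparison.

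The comparison of prkdc mutants with wild type fish found no difference for any member. edgeR's quasi-likelihood test called 0 of 7 higher and 0 of 7 lower at a Benjamini-Hochberg adjusted p under 0.05, where 0% of all tested genes were called higher and 0% lower. No member had an unadjusted p under 0.05, where 1052 of 18370 tested genes had one. DESeq2 and limma voom called 0 of 7 as well. The fitted log2 fold changes ran from -1.21 for mxb to 0.48 for mxa, 2 above and 5 below 0. Their median was -0.45, and that of all genes was 0.00. The values turned on single wild type fish: without wild type 3 the median was 0.60 with 6 of 7 above 0, and without wild type 1 it was -0.79 with all 7 below 0.

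In il2rga mutants all 7 genes had fitted values above wild type, but none passed the test. edgeR called 0 of 7 higher, where 2.22% of all tested genes were called higher, and 0 of 7 lower, where 3.59% were. The median log2 fold change was 0.99 for the 7 genes and 0.06 for all genes. irf1b had the smallest adjusted p in edgeR, 0.13, with a log2 fold change of 1.01 ± 0.38 (SE, n = 3 against 3). It was the only member with an unadjusted p under 0.05, where 4368 of 18370 tested genes had one. irf7 was at 0.80 ± 0.41 with an edgeR adjusted p of 0.267. mxb had the largest value, 2.23 ± 1.53, and the largest error. isg15 was at 0.99 ± 0.96 and rsad2 at 0.26 ± 1.16. For isg15 and rsad2 the error was about as large as the difference or larger, while for mxb it was smaller than the difference.

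The common sign of the 7 values was not stable. Without il2rga mutant 1, 4 of the 7 were above and 3 below wild type, with a median of 0.38, and mxa, mxb and rsad2 changed sign. Without wild type 1 or wild type 2, with limma voom and with the replicate block, 6 of the 7 were above wild type. With the mean of the liver markers as a covariate the median was -0.54, with 3 above and 4 below. Without the 4 libraries richest in liver markers, which leaves 1 il2rga mutant, the median was -1.63, also with 3 above and 4 below. Without wild type 3 it was 2.03, and without wild type 1 it was 0.60. No member separated the groups, while 14.6% of all genes were higher in every il2rga mutant than in every wild type fish. DESeq2 and limma voom called 0 of 7.

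In double mutants against wild type, edgeR called 0 of 7 higher and 0 of 7 lower, while 6.8% of all tested genes were called higher and 7.51% lower. The values ran from -1.004 for rsad2 to 0.59 for mxc with a median log2 fold change of 0.18, 5 above and 2 below 0, and the median of all genes was 0.05. No member had an unadjusted p under 0.05, where 5947 of 18370 tested genes had one. DESeq2 and limma voom also called 0. Without double mutant 2 all 7 lay below wild type with a median of -0.59. Without wild type 3 all 7 lay above it with a median of 1.16, and without double mutant 3, 6 of 7 did, with a median of 0.62. Without wild type 1 the median was -0.19 and without wild type 2 it was -0.07. With the liver covariate it was -1.99, with 3 above and 4 below, and without the 4 libraries richest in liver markers, which leaves 1 double mutant, it was -2.06 with all 7 below.

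Double mutants were also set against each single mutant. Against prkdc mutants, edgeR called 0 of 7 higher or lower, where 7.93% of all tested genes were called higher and 6.86% lower. The smallest adjusted p was 0.17, for irf1b. In the 1 fit that left out double mutant 3, irf1b was called higher, with a log2 fold change of 1.09 and an edgeR adjusted p of 0.0427. That fit called 2946 of 19060 tested genes, higher or lower. With all 12 libraries the median over the 7 was 0.79 with 5 above 0. It was -0.40 with 2 above 0 without double mutant 2. Under the liver covariate it was -1.62 with 2 above 0. Without the 4 libraries richest in liver markers it was -1.50 with none above 0. Against il2rga mutants, all 7 had fitted values below 0 with a median log2 fold change of -0.74. Without il2rga mutant 1 the median was -0.17 with 2 above 0, without double mutant 2 it was -1.74 and without double mutant 3 it was -0.38, both with all 7 below 0. Without il2rga mutant 3 the median was -1.10, with 1 above 0. Here edgeR called 0 of 7 in either direction, where 0% of all tested genes were called higher and 0% lower. No member had an unadjusted p under 0.05 in either comparison. Of 18370 tested genes, 5928 had one against prkdc mutants and 1767 against il2rga mutants. With the replicate number as a block, 0 of 7 were called against il2rga mutants too. DESeq2 and limma voom called 0 of 7 in both.

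The interaction asks whether the il2rga allele and the prkdc allele together differ, on the log2 scale, from the sum of their separate effects. edgeR called 0 of 7 in either direction, where 0% of all tested genes were called higher and 0% lower. The 7 values were all below 0, from -1.38 to -0.16 on the log2 scale with a median of -0.31. No unadjusted p was under 0.05, where 1123 of 18370 tested genes had one. Without il2rga mutant 1, 4 of the 7 were above 0 with a median of 0.26, and without double mutant 3, 4 were, with a median of 0.10. With limma voom 3 of the 7 were above 0. Over the fits that left out 1 library, the median ran from -1.36 without wild type 3 to the 0.26 without il2rga mutant 1. These 5 pairs of groups and the interaction share libraries, so their values are not independent of each other. prkdc mutants were not tested against il2rga mutants.

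**Figure D4:**
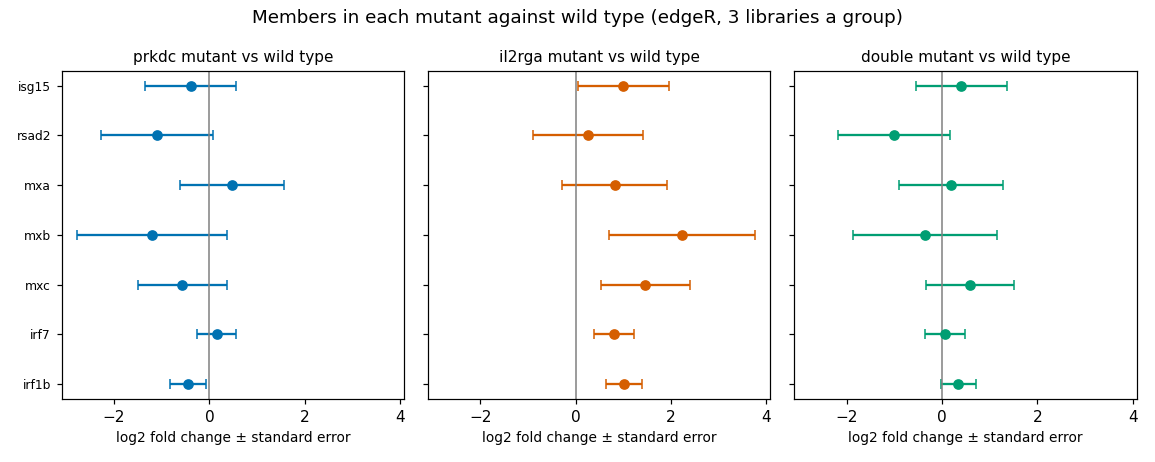
Fitted log2 fold change and standard error of the 7 genes in prkdc mutants, il2rga mutants and double mutants against wild type (edgeR, 3 libraries per group, all 12 in the fit). None is called, and the bars of mxb, rsad2, mxa and isg15 are the longest among the 7.

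The genes most alike to the 7 in their pattern over the libraries were found by the Pearson correlation of log2 CPM with the standardized mean of the 7. The 10 highest with a symbol were si:ch73-252i11.1 at 0.97, si:ch211-210p4.6 at 0.95, si:ch211-244b2.3 at 0.93, si:dkey-23k10.3 at 0.93, xaf1 at 0.92, phf11 at 0.92, dhx58 at 0.92, btr09 at 0.92, ifi27.7 at 0.92 and ifi44c2 at 0.92, each over 12 libraries. dhx58 encodes a relative of the RNA sensor RIG-I and ranged from 10.4 CPM in double mutant 3 to 80.9 in il2rga mutant 1. ifi44c2 ranged from 0.61 to 67.0 CPM and ifi27.7 from 10.1 to 82.8 CPM between the same pair of libraries. All 10 had their lowest value in double mutant 3 and their highest in il2rga mutant 1, and without those 2 libraries their correlations were 0.82 to 0.95. The mean of the 7 has its own extremes in those libraries, so choosing genes by correlation with it favours this. Of all 18370 tested genes, 77, or 0.419%, had a correlation above 0.8, and the median was 0.01.

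**Figure D5:**
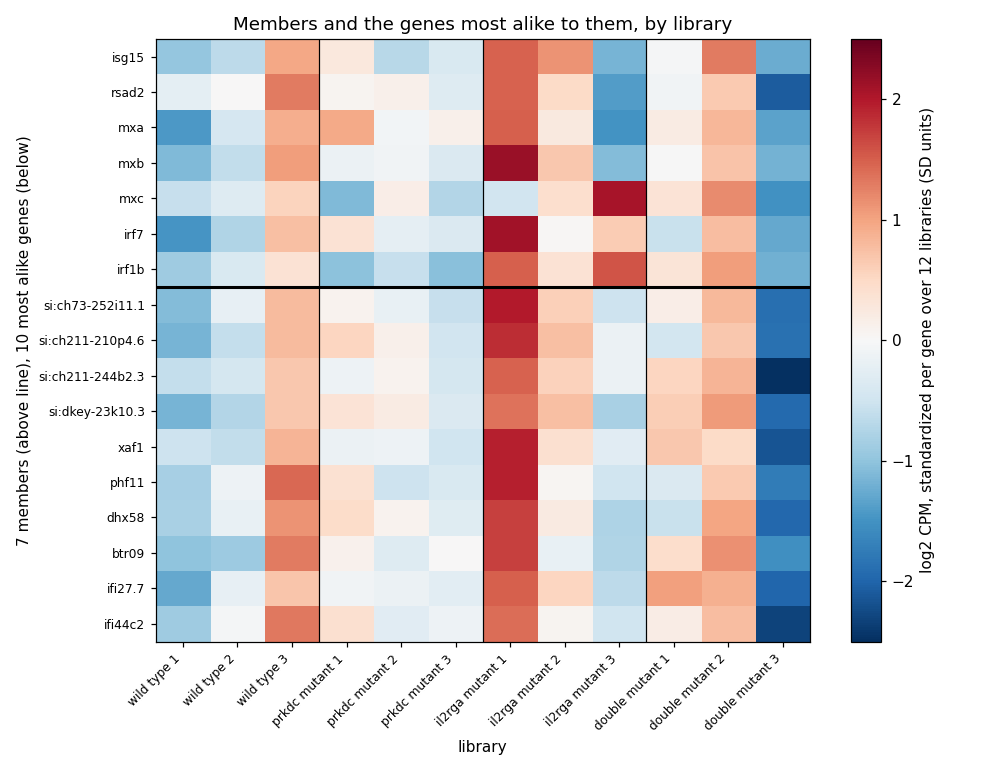
Log2 CPM of the 7 genes (above the line) and of the 10 genes most alike to them (below the line) in the 12 libraries, in SD units after standardizing each gene. Columns of il2rga mutant 1, wild type 3 and double mutant 2 are mostly red (high), and double mutant 3 is blue (low) for all rows.

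The rest of the interferon pathway was described from lists of named genes. Of 49 other interferon-stimulated effectors tested, 20 had a correlation above 0.8 with the mean of the 7, with a median of 0.70. The correlation was below 0 for 6 of the 49, and lowest for gbp3, at -0.79. Among these 6, isg20 and samhd1 had their highest values in double mutant 3, at 38.3 and 32.2 CPM. An SD above 1 between animals of 1 genotype was found for 18 of the 49, against 10.96% of all genes. cmpk2, a nucleotide kinase gene that lies next to rsad2 in the RefSeq annotation of the GRCz12tu assembly, followed the 7 at 0.89. It was at 1.97, 1.71 and 9.15 CPM in wild type fish, 4.01, 4.04 and 2.76 in prkdc mutants, 18.7, 5.02 and 0.85 in il2rga mutants and 3.41, 5.90 and 0.31 in double mutants. stat2, a factor of type I interferon signalling, ranged from 32.2 CPM in double mutant 3 to 423 CPM in wild type 3, with a correlation of 0.76.

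The other mx genes divided. mxe, which lies next to mxc in that annotation, followed the 7 with a correlation of 0.80 and ran from 0.46 CPM in double mutant 3 to 51.3 CPM in il2rga mutant 1. mxf was at 99.3 CPM in il2rga mutant 3 and between 1.68 and 28.5 CPM in the other 11 libraries, so it shared its highest and lowest fish with mxc. mxf had a log2 fold change of 2.77 ± 1.14 in il2rga mutants against wild type with an edgeR adjusted p of 0.176. mxd was at 15.8, 13.3 and 14.4 CPM in wild type fish and lower, between 0.92 and 7.77 CPM, in every mutant. Its correlation with the mean of the 7 was 0.42. Of all tested genes, 7.65% were lower in every prkdc mutant than in every wild type fish. For il2rga and double mutants the shares were 16.0% and 17.8%. None of the 3 other mx genes tested was called in any comparison.

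The interferons themselves were scarcely detected. ifnphi1, a type I interferon of fish, was the only one with enough counts to test, with 0.98 to 5.19 CPM. Its highest value was in double mutant 3, the library lowest in 5 of the 7 genes, and its correlation with the mean of the 7 was -0.42. It was not called in any comparison.

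Receptor chains, kinases and sensors are described next. In double mutants, 7.51% of all tested genes were called lower against wild type, and 6.86% against prkdc mutants. Of 3 receptor kinases tested, tyk2, which serves the type I interferon receptor, fell in double mutants against wild type. It was at 63.0, 60.3 and 80.6 CPM in wild type and 18.8, 27.6 and 22.8 in double mutants. These did not overlap, and 17.8% of all tested genes were likewise lower in every double mutant than in every wild type fish. The il2rga mutants, at 53.4, 30.1 and 40.8 CPM, also lay below every wild type fish, as was so for 16.0% of all tested genes. tyk2 was not called in that comparison. In double mutants against wild type its log2 fold change was -1.56 ± 0.26 with an edgeR adjusted p of 0.00694. That call held in all 12 fits that left out 1 library. tyk2 was also lower than in prkdc mutants, by -1.33 ± 0.26 with an edgeR adjusted p of 0.014, a call lost without prkdc mutant 3 or double mutant 1, with adjusted p up to 0.0634. jak1, the most abundant kinase of the list by CPM, was not called.

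Of 6 receptor chains tested, 1 was called lower in double mutants, against wild type, where 7.51% of all genes were, and against prkdc mutants, where 6.86% were. ifngr1l, an interferon-gamma receptor chain, was at 66.9, 39.2 and 43.5 CPM in wild type and 19.4, 30.3 and 15.7 in double mutants. These groups did not overlap, as was so for 17.8% of all tested genes in the same direction. The il2rga mutants, at 33.8, 36.6 and 24.3 CPM, also lay below every wild type fish, as was so for 16.0% of all tested genes. ifngr1l was not called in that comparison. In double mutants it fell with a log2 fold change of -1.19 ± 0.31 against wild type (edgeR adjusted p 0.032). Against prkdc mutants the fall was -1.13 ± 0.31 (edgeR adjusted p 0.037). The first call was lost without wild type 1, wild type 3, double mutant 1 or double mutant 3, with adjusted p up to 0.121, and the second without wild type 3, prkdc mutant 2, prkdc mutant 3, double mutant 1 or double mutant 3, with adjusted p up to 0.133.

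Of 16 nucleic acid sensors and adaptors, 3 fell and 0 rose in double mutants against wild type, beside 7.51% and 6.8% of all tested genes. tlr7, an endosomal receptor for RNA, was at 2.75, 5.60 and 15.3 CPM in wild type and 0.68, 1.60 and 0.76 in double mutants, with a log2 fold change of -2.92 ± 0.69 and an edgeR adjusted p of 0.0232. tlr9, an endosomal receptor for DNA, was at 6.98, 9.62 and 23.9 CPM in wild type and 2.16, 3.80 and 1.99 in double mutants, at -2.33 ± 0.61 with an edgeR adjusted p of 0.0318. ifih1, which encodes the RNA sensor MDA5, was at -0.98 ± 0.29 with an edgeR adjusted p of 0.043. The tlr7 call was lost without wild type 3 or double mutant 1 (adjusted p up to 0.0949), and the tlr9 call without wild type 3, double mutant 1 or double mutant 3 (up to 0.122). The ifih1 call held in 4 of the 12 fits that left out 1 library, with adjusted p up to 0.157.

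Among the 49 effectors, 2 fell in double mutants against wild type and 0 rose, beside 7.51% and 6.8% of all tested genes, so the list held no more calls than genes at large. nlrc5, which in mammals controls MHC class I genes, was at 30.3, 35.4 and 49.8 CPM in wild type and 6.82, 14.1 and 13.3 in double mutants, with a log2 fold change of -1.76 ± 0.35 and an edgeR adjusted p of 0.0135. The il2rga mutants, at 14.9, 13.5 and 28.7 CPM, also lay below every wild type fish, as was so for 16.0% of all tested genes. nlrc5 was not called in that comparison. In double mutants against prkdc mutants, 1 of the 49 was called lower, where 6.86% of all tested genes were. It was again nlrc5, at -1.40 ± 0.35 with an edgeR adjusted p of 0.0269. Its correlation with the mean of the 7 genes was -0.12 over 12 libraries. sp100.3 in double mutants against wild type was at -2.07 ± 0.55 with an edgeR adjusted p of 0.0335. The nlrc5 call against wild type was lost without wild type 3 or double mutant 1 (adjusted p up to 0.0603), that against prkdc mutants without any 1 of the 3 prkdc mutants or double mutant 1 (up to 0.0987), and the sp100.3 call without wild type 2, wild type 3 or any 1 double mutant (up to 0.124).

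Macrophage markers summed to 725 to 1115 CPM in double mutants, 1429 to 2043 in wild type, 1508 to 1897 in prkdc mutants and 1463 to 1961 in il2rga mutants, from 6 genes, none at 0. B cell markers summed to 8.18 to 16.6 CPM in double mutants, 126 to 282 in wild type, 15.2 to 26.3 in prkdc mutants and 75.7 to 756 in il2rga mutants. NK and cytotoxic markers summed to 44.5 to 101 CPM in wild type and 38.6 to 62.7 in prkdc mutants. They summed to 5.74 to 12.4 CPM in il2rga mutants and 6.48 to 12.8 in double mutants. By summed CPM, macrophage markers were thus lower in double mutants than in the other groups. By mean log2 CPM of the same 6 genes, double mutants, at 6.75 to 7.24, overlapped wild type fish, at 7.12 to 7.55. By that measure they still lay below every prkdc mutant and every il2rga mutant. B cell markers were low in prkdc mutants as well, and NK and cytotoxic markers in il2rga mutants as well. The part of these markers in the falls in double mutants was not tested.

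Of 4 negative regulators tested, 1 was called higher in double mutants against wild type, where 6.8% of all tested genes were. This was cish, a feedback inhibitor of cytokine signalling, and no other negative regulator was called. It was at 4.82, 13.8 and 4.95 CPM in wild type and 132, 156 and 6.26 in double mutants, which overlap, with a log2 fold change of 3.65 ± 1.07 and an edgeR adjusted p of 0.0473. The call held in 2 of the 12 fits that left out 1 library, with adjusted p up to 0.152. The il2rga mutants, at 180, 132 and 38.1 CPM, lay above every wild type fish, as was so for 14.6% of all tested genes. cish was not called in that comparison. In double mutants against prkdc mutants, 1 of 6 other STAT genes was called lower, where 6.86% of all tested genes were. Of 7 other IRF genes, 1 was called higher, where 7.93% of all tested genes were. stat6, a factor of interleukin-4 signalling, was at -0.97 ± 0.29 (edgeR adjusted p 0.0487). irf9, which acts with STAT proteins in type I interferon signalling, was at 0.74 ± 0.22 (edgeR adjusted p 0.0468). These calls held in 2 and 1 of the 12 such fits, with adjusted p up to 0.165 and 0.151.

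In il2rga mutants against wild type, 1 of the 16 sensors and 1 of the 49 effectors rose, where 2.22% of all tested genes did, so the effectors were called about as often as genes at large. sting1, the adaptor of cytosolic DNA sensing, was at 11.1, 9.14 and 14.4 CPM in wild type and 42.7, 34.3 and 21.7 in il2rga mutants. These groups did not overlap, as was so for 14.6% of all tested genes in the same direction. The log2 fold change of sting1 was 1.51 ± 0.35 with an edgeR adjusted p of 0.0316. The call was lost without any 1 of the 3 wild type fish, prkdc mutant 3, il2rga mutant 1 or il2rga mutant 2, with adjusted p up to 0.11. gbp4, of a family of interferon-gamma induced GTPases, was at 0.98, 1.1 and 1.18 CPM in wild type and 2.94, 3.84 and 2.55 in il2rga mutants. It was at 1.51 ± 0.37 with an edgeR adjusted p of 0.0364, held in 3 of the 12 fits that left out 1 library, with adjusted p up to 0.136. No pathway gene was called in prkdc mutants against wild type, in double against il2rga mutants or in the interaction.

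The pathway calls were also set beside the alternative fits. The DESeq2 Wald test kept all of them. In a fit of only the groups compared, tyk2 and nlrc5 in double mutants against wild type and sting1 in il2rga mutants were kept, and the others, both ifngr1l calls and tyk2 and nlrc5 against prkdc mutants among them, were lost. With the replicate block, stat6, sting1, tlr9, ifih1, gbp4, sp100.3 and cish were lost. limma voom lost stat6, irf9, tlr7, tlr9 and sp100.3. Without a filter on low counts stat6, irf9, ifih1, gbp4 and cish were lost, and with DESeq2 size factors stat6 was. The liver covariate left 0 genes of the whole table called in these 3 comparisons, and the fit without the 4 libraries with most liver transcripts left 0 in both comparisons of double mutants and 22 in il2rga mutants against wild type, so the loss of the pathway calls there is not particular to these genes. Their log2 fold changes under the covariate and without those libraries were -1.27 and -1.57 for tyk2, -1.76 and -1.66 for ifngr1l, -0.64 and -1.53 for nlrc5, -2.67 and -3.33 for tlr7 and -1.75 and -2.75 for tlr9 in double mutants against wild type. nlrc5 against prkdc mutants was at -0.24 and -1.17. sting1 in il2rga mutants was at 0.75 and 0.90, and gbp4 at 1.26 and 1.22. cish in double mutants was at 0.93 and -0.31, so its direction turned only without those libraries, which leaves 1 double mutant.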

How the data were processed

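The authors deposited unnormalized counts of reads by Ensembl identifier for 12 whole kidney marrow libraries, each of 1 fish. From each, 100 ng of RNA went, per the labels' protocols, through poly(A) selection, a directional kit with 15 PCR cycles and paired 50 bp sequencing. Per the submitters' processing notes, STAR, Picard and featureCounts were used on GRCz10. Versions, annotation, strand setting and the treatment of duplicate and multimapping reads are unknown: not given in the sources used here.

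Symbols were matched to 26269 of 32105 identifiers through a table of gene names, ignoring case. Genes passing filterByExpr (18370) were scaled by TMM and fitted in edgeR 4.0.16 (R 4.3.3, glmQLFit with robust estimates, all 12 libraries, 4 group means). glmQLFTest gave 2-sided tests, adjusted by Benjamini-Hochberg over all genes at 0.05. Standard errors were obtained by dividing each log2 fold change by the square root of its F. A prior count of 2 entered log2 CPM. The test was checked on simulated counts. Alternatives used DESeq2 1.42.0, limma 3.58.1 and other filters, covariates and libraries. A marker list of the liver was among 14 cell type and tissue lists.

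Of 18 pairs of libraries with the same replicate number, 6 had a correlation of deviations above 0.1 (median 0.066). All 3 pairs of il2rga with double mutants did, so the block is given beside that comparison.

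The members and lists were chosen with earlier results of these data known. Not all chosen members are reported here, and every count and summary of members covers the 7 described. The rule for naming took all 7, up to 4 called genes of each pathway list per comparison or else the most abundant one, and the 10 genes most alike to the members. Of the most abundant ones, il10rb, irf8, mavs, b2m and ptpn6 are not described. The other listed interferons are named with their counts. Genes named beside these (cmpk2, mxd, mxe, gbp3, isg20, samhd1, ifit8 and usp18) were chosen after their values were seen. No sequences are shown.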

Additional observations from a re-analysis of the deposited data

How the results depend on the processing

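The count of 0 of 7 members called was the same in all 6 comparisons with DESeq2 size factors, no filter on low counts, the DESeq2 Wald test, limma voom, the replicate block, a liver covariate and after dropping the 4 libraries with most liver transcripts, and in the 5 pairs with only the groups compared. Leaving out 1 library at a time, the count of members called higher in double than in prkdc mutants ran from 0 to 1. The 1 came without double mutant 3, in a fit that called 2946 of 19060 tested genes, higher or lower. Signs of single members were less stable, and the cause was not tested.

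Without the 4 libraries richest in liver transcripts, il2rga and double mutants keep 1 library each, whose spread is assumed to be like that of the other groups. Log2 fold changes against wild type were then, in il2rga mutants, -1.63 for isg15, -3.72 for rsad2, -2.39 for mxa and -3.73 for mxb. There mxc, irf7 and irf1b kept their sign, at 2.63, 0.54 and 1.26. In double mutants the log2 fold changes were -1.72 for isg15, -2.15 for mxa, -2.06 for mxc, -0.55 for irf7 and -0.67 for irf1b, and irf1b against prkdc mutants was at -0.22. With the liver covariate, il2rga mutants were at -1.07 for isg15, -2.43 for rsad2, -1.33 for mxa and -0.54 for mxb. Again mxc, irf7 and irf1b kept their sign, at 2.16, 0.78 and 1.12. Under that covariate double mutants were at -1.99 for isg15 and -2.49 for mxa. Except for mxc, irf7 and irf1b in il2rga mutants, only members whose sign changed are given here. With limma voom, prkdc mutants were at -0.012 for irf7, il2rga mutants at -0.31 for rsad2, and double mutants at 0.16 for mxb. With the replicate block, rsad2 was at -0.36 in il2rga mutants and mxa at -0.18 in double mutants, and the block changed no other sign against wild type and no member's call.

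Leaving out 1 library, prkdc mutants against wild type ran from -0.83 to 0.77 for isg15, -1.51 to 0.15 for rsad2, -0.12 to 1.83 for mxa, -1.77 to 1.68 for mxb, -1.23 to 0.0103 for mxc and -0.10 to 0.60 for irf7. il2rga mutants ran from -1.07 to 1.51 for rsad2, -0.56 to 2.16 for mxa and -0.19 to 5.11 for mxb. In these fits isg15, mxc, irf7 and irf1b stayed above wild type in il2rga mutants, and irf1b stayed below it in prkdc mutants. Double mutants ran from -0.75 to 1.57 for isg15, -2.12 to 0.24 for rsad2, -0.59 to 1.53 for mxa, -1.61 to 2.53 for mxb, -0.31 to 1.16 for mxc, -0.33 to 0.51 for irf7 and -0.0405 to 0.64 for irf1b.

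Counts of all genes called depend on the tool. edgeR called 0, 1066, 2628 and 2717 genes in prkdc, il2rga and double mutants against wild type and in double against prkdc mutants, DESeq2 139, 2400, 4078 and 4176, and limma voom 26, 2626, 2975 and 3396. Depth limits mxb and rsad2, whose lowest libraries held 1 to 3 counts, and counts cover counting error only.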

Other observations

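The remaining interferon genes were at or near the limit of detection. Over all 12 libraries ifnphi3 had 24 counts, ifng1 11 and ifnphi2 4, while ifnphi4 and ifng1r had 0. ifit8, of the family of interferon-induced RNA-binding proteins, was listed at 0 counts in double mutant 3 and at 36.6 CPM in il2rga mutant 1, and usp18, which removes isg15 from proteins, ran from 1.53 CPM in double mutant 3 to 13.4 in double mutant 2.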
